A study of Mus musculus with 4 samples.

Results

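The enzymes that write, copy and remove DNA methylation were followed in the RNA of sorted *Hmx3-Cre*/tdTomato cells with and without a *Dnmt1* deletion. The 9 genes were chosen by function, with earlier results of these data known. These were the DNA methyltransferases *Dnmt1*, *Dnmt3a* and *Dnmt3b*, the hemimethylated-DNA readers *Uhrf1* and *Uhrf2*, the dioxygenases *Tet1*, *Tet2* and *Tet3*, and the glycosylase *Tdg*. They are 9 of the 55573 genes counted in each library, and all 9 were among the 16832 genes with enough reads to be tested. RNA came from tdTomato-positive cells enriched by fluorescence-activated cell sorting (FACS) at embryonic day (E) 16, where the day of insemination counts as day 1. The sample labels give the whole basal telencephalon as the dissected tissue, whereas the study's methods give the preoptic area (POA) within it.

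All embryos carried the *Hmx3-Cre* transgene and the *tdTomato* reporter. Wild-type (WT) embryos had intact *Dnmt1* alleles, and knockout (KO) embryos carried the *Dnmt1* loxP2 allele (*Dnmt1tm4Jae*), in which Cre removes exons 4 and 5. The deletion is therefore restricted to cells that express, or descend from cells that expressed, *Hmx3*, a homeobox gene of the POA. Cells were pooled from 12 WT and 6 KO embryos, and 2 libraries were sequenced per genotype. The labels call these biological replicates and the study's methods call them technical duplicates of pools, so the SDs and p-values below measure the spread between libraries, which may be technical. In such bulk samples, fewer cells of a type and less RNA per cell cannot be told apart.

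DNMT1 copies methylation onto the new DNA strand after replication, and UHRF1 recruits it by binding CpG sites that are methylated on the old strand only. DNMT3A and DNMT3B place methylation on unmethylated DNA, and DNMT3A is the main enzyme of this kind in maturing neurons. TET1, TET2 and TET3 oxidise 5-methylcytosine to 5-hydroxymethylcytosine and further products, which TDG cuts out so that base excision repair can restore an unmethylated cytosine.

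The libraries held 8075102 to 9995968 counts, and 3 counts corresponded to 0.294 to 0.372 units of CPM (counts relative to the library total, adjusted with TMM factors). The share of mitochondrial rRNA was 8.66% in WT replicate 1 and 1.51% to 2.32% in the other libraries. GABAergic markers were present in every library, with 633, 919, 604 and 851 counts of *Hmx3*, whose promoter drives Cre, and 5662, 6497, 4680 and 5478 counts of *Dlx1*, a homeobox factor of interneurons, in WT replicates 1 and 2 and KO replicates 1 and 2. The sorted cells also carried markers of other types, and those of astrocytes, mature oligodendrocytes and mural cells were far higher in both KO libraries, as described with their values at the end.

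*Dnmt1* (ENSMUSG00000004099) is a minus-strand gene of chromosome 9, GRCm38 positions 20907209 to 20959888. In the annotated transcript Dnmt1-201, which has 39 exons, exons 4 and 5 hold 290 of 5367 bases. This number is not a multiple of 3, and splicing from exon 3 to exon 6 meets a stop codon 2 codons after the junction, after 77 codons in place of 1620. The sequences of the deleted stretch and of the exon that follows it are shown because they define the KO allele. They are written 5′ to 3′ from the GENCODE M21 transcript, for exon 4 from chr9:20941373-20941454, the part from the start codon of shorter annotated transcripts onward, for exon 5 from chr9:20940476-20940554, and for the first 30 bases of exon 6 from chr9:20938117-20938146. Capitals mark that start codon in exon 4 and the stop codon met after the deletion in exon 6.
Exon 4: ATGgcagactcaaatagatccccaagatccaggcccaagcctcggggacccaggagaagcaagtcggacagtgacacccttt
Exon 5: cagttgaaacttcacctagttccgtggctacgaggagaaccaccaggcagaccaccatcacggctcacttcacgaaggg
Exon 6: ccccacTAAacggaaacccaaggaagagtc

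The removed exons make up 3.93% of the exonic bases on which *Dnmt1* reads were counted. The count is thus a measure of RNA from the rest of the gene, and it does not show the deletion itself. *Dnmt1* was counted 3103 and 4557 times in the WT libraries and 2383 and 2552 times in KO. On the CPM scale these were 385 and 446 in WT and 283 and 281 in KO. The genotypes did not overlap, with KO lower, and the KO libraries were nearly alike. The KO level was 0.679 times the WT level, or -0.56 on the log2 scale (SE 0.14, 95% interval -0.88 to -0.23, n = 2 per genotype). The edgeR adjusted p was 0.0511 over all tested genes, just outside the threshold of 0.05. *Dnmt1* was lower in all 11 alternative analyses with every library, with an adjusted p between 0.000117 and 0.151, and 8 of the 11 passed. With 1 library left out, *Dnmt1* was -0.67 on the log2 scale without WT replicate 1 and -0.46 without WT replicate 2. It was -0.55 without KO replicate 1 and -0.55 without KO replicate 2. Whether *Dnmt1* passed depended on the library left out, and such fits assume that the lone library varies like the pair.

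The de novo methyltransferases showed no difference that passed the test. *Dnmt3a* (ENSMUSG00000020661), on chromosome 12 from 3806007 to 3914443, was counted 2305 and 2921 times in the WT libraries and 2301 and 2810 times in KO. These were 286.1 and 286.2 CPM in WT and 274 and 309 CPM in KO, so that the WT libraries lay between the KO libraries. The antisense gene *Dnmt3aos* covers 0.8% of its exonic bases. The KO minus WT difference was 0.03 on the log2 scale with a 95% interval of -0.29 to 0.34 (SE 0.14, edgeR adjusted p = 0.933). *Dnmt3b* (ENSMUSG00000027478), on chromosome 2 from 153649450 to 153687730, was counted only 48 and 54 times in the WT libraries and 51 and 48 times in KO. Its levels were 5.96 and 5.29 CPM in WT and 6.06 and 5.29 CPM in KO, and the genotypes overlapped. At this depth the 95% interval of the log2 fold change, -0.73 to 0.76 around 0.01, leaves room for a sizeable difference in either direction (SE 0.32, edgeR adjusted p = 0.989). Of the 50-base stretches of the *Dnmt3b* transcripts 9.8% also occur in its rodent duplicate *Dnmt3c*, which had 1 count in WT replicate 1 and 0 in the other libraries. The sign of the *Dnmt3a* and *Dnmt3b* differences changed between analyses. For *Dnmt3a* the log2 fold change was -0.06 without KO replicate 2, and for *Dnmt3b* it was -0.08 without WT replicate 2 and -0.07 without KO replicate 1.

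The 2 UHRF genes lay on opposite sides of 0. *Uhrf1* (ENSMUSG00000001228), on chromosome 17 from 56303321 to 56323486, encodes the partner that brings DNMT1 to hemimethylated DNA. It was counted 242 and 312 times in the WT libraries and 322 and 280 times in KO. Its levels were 30.04 and 30.6 CPM in WT and 38.3 and 30.8 CPM in KO, and KO replicate 2 exceeded the WT libraries by little. *Uhrf1* differed by 0.19 on the log2 scale with a 95% interval of -0.23 to 0.60 (SE 0.18, edgeR adjusted p = 0.578). A processed copy of the gene, *Gm5648*, shares 15.4% of the 50-base stretches together with 1 other gene, and it had 0 counts in all 4 libraries. *Uhrf2* (ENSMUSG00000024817), on chromosome 19 from 30030513 to 30093722, encodes a related protein that also binds 5-hydroxymethylcytosine. It was counted 1308 and 1440 times in the WT libraries and 991 and 1090 times in KO. Its levels were 162 and 141 CPM in WT and 118 and 120.0 CPM in KO, so that each KO library was below each WT library. The log2 fold change of *Uhrf2* was -0.35 (SE 0.14, 95% interval -0.68 to -0.02; edgeR adjusted p = 0.200). Across the 11 alternatives its adjusted p was 0.0592 to 0.520, and it passed in none of them. With 1 library left out, *Uhrf2* ranged from -0.46 (without WT replicate 2) to -0.25 on the log2 scale.

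**Figure D1:**
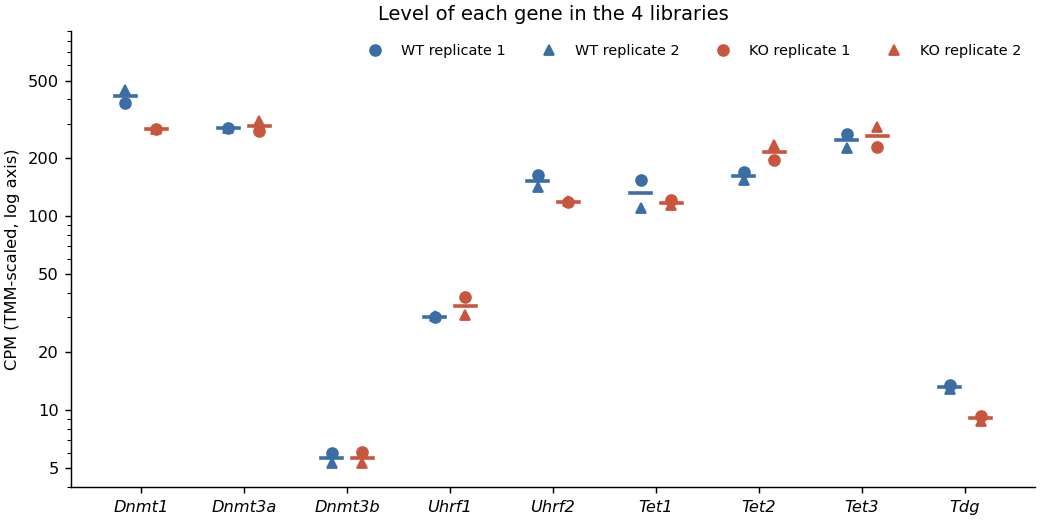
Level of each of the 9 genes in CPM (TMM-scaled, log axis) in the 4 libraries, with WT in blue and KO in red, circles for replicate 1, triangles for replicate 2 and a line at each genotype's mean. The KO libraries lie below the WT libraries for *Dnmt1*, *Uhrf2* and *Tdg* and above them for *Uhrf1* and *Tet2*, and the genotypes overlap for the other 4 genes.

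Among the TET genes, *Tet2* was the one whose libraries separated by genotype. *Tet2* (ENSMUSG00000040943), on chromosome 3 from 133463679 to 133545139, was counted 1361 and 1559 times in the WT libraries and 1637 and 2102 times in KO. Its levels were 169 and 153 CPM in WT and 195 and 232 CPM in KO, with each KO library above each WT library. The difference was 0.41 on the log2 scale (SE 0.15, 95% interval 0.06 to 0.75). It did not pass over all genes (edgeR adjusted p = 0.159). In the 11 alternatives the adjusted p of *Tet2* was 0.00146 to 0.174, and it passed in the 2 that corrected for gene length and GC content. With 1 library left out, *Tet2* ranged from 0.28 (without KO replicate 2) to 0.54 (without KO replicate 1) on the log2 scale.

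*Tet1* (ENSMUSG00000047146), on chromosome 10 from 62804570 to 62908996, was counted 1231 and 1128 times in the WT libraries and 1013 and 1039 times in KO. On the CPM scale the WT libraries were at 153 and 111 and the KO libraries at 120.4 and 114, between the WT values. *Tet1* differed by -0.16 on the log2 scale with a 95% interval of -0.58 to 0.25 (SE 0.18, edgeR adjusted p = 0.631), and its direction rested on WT replicate 1. Without that library it was 0.08, and without WT replicate 2 it was -0.39. *Tet3* (ENSMUSG00000034832), on chromosome 6 from 83362373 to 83459084, was counted 2150 and 2305 times in the WT libraries and 1914 and 2629 times in KO. Its levels were 267 and 226 CPM in WT and 228 and 289.5 CPM in KO, and the genotypes overlapped. *Tet3* differed by 0.07 on the log2 scale with a 95% interval of -0.32 to 0.46 (SE 0.17, edgeR adjusted p = 0.846), and it turned to -0.06 without WT replicate 2 and to -0.11 without KO replicate 2.

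*Tdg* (ENSMUSG00000034674), on chromosome 10 from 82629828 to 82650799, was a scarce transcript. It was counted 108 and 130 times in the WT libraries and 78 and 80 times in KO, or 13.4 and 12.7 CPM in WT and 9.27 and 8.81 CPM in KO. The KO values were below the WT values, and the replicates within each genotype were close. The log2 fold change of *Tdg* was -0.53, similar in size to that of *Dnmt1*, with a wider error (SE 0.25, 95% interval -1.11 to 0.05, edgeR adjusted p = 0.254). Its adjusted p was 0.176 to 0.542 in the 11 alternatives, and it passed in none of them. The *Tdg* count is uncertain for a further reason. Other genes share 41.2% of its 50-base stretches, mainly the processed pseudogenes *Tdg-ps*, *Gm9855* and *Gm5597*, and how reads with several matches were counted is not given in the sources used here. *Tdg-ps* was counted 0 and 10 times in the WT libraries and 0 and 4 times in KO. The exons of *Glt8d2* on the opposite strand cover 6.8% of the exonic bases of *Tdg*, and *Glt8d2* was counted 26 and 30 times in the WT libraries and 29 and 30 times in KO.

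In all, 0 of the 9 genes passed an edgeR adjusted p of 0.05, beside 7.90% of all tested genes, split into 7.33% higher and 0.570% lower in KO. At an unadjusted p under 0.05 there were 3 of the 9, *Dnmt1*, *Uhrf2* and *Tet2*, beside 22.7% of all tested genes. DESeq2 and limma-voom each called 1, *Dnmt1*. The KO values were both below the WT values in 3 of the 9 genes, beside 25.2% of all tested genes, and above them in 2 of the 9, beside 28.3%. The median log2 fold change was 0.01 over the 9 genes and -0.03 over all tested genes.

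**Figure D2:**
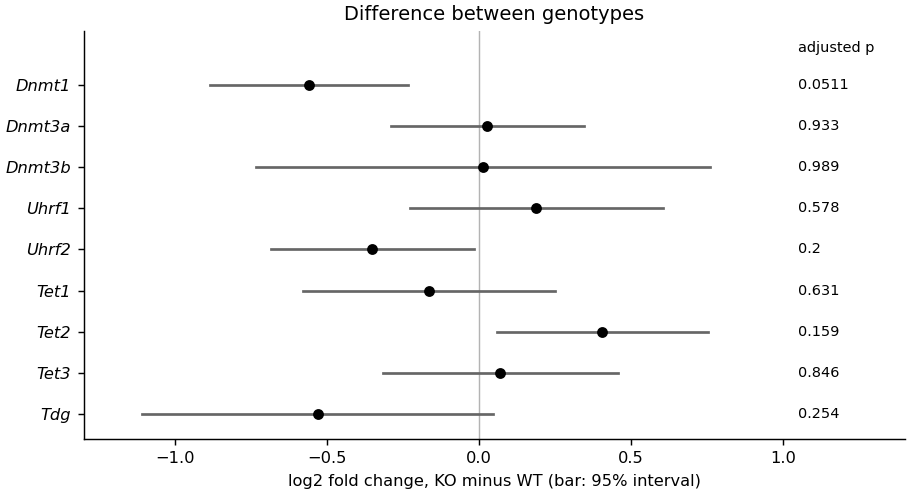
Log2 fold change (KO minus WT) of each gene with its 95% interval from edgeR, 2 libraries per genotype, and its adjusted p at the right. The intervals of *Dnmt1* and *Uhrf2* lie below 0 and that of *Tet2* above 0, while the adjusted p of *Dnmt1*, 0.0511, is the smallest of the 9.

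Levels of different genes were compared per kilobase of exon (RPKM, with TMM-scaled library sizes). In WT, *Dnmt1* stood at the top with 56.4 ± 5.88 RPKM (SD, n = 2). *Uhrf2* with 17.7 ± 1.75, *Dnmt3a* with 17.2 ± 0.00322 and *Tet3* with 14.8 ± 1.74 RPKM (SD, n = 2) followed, and *Dnmt3a* lay between the 2 *Uhrf2* libraries. *Tet2* with 9.53 ± 0.679, *Tet1* with 8.52 ± 1.93 and *Uhrf1* with 7.12 ± 0.0880 RPKM (SD, n = 2) formed the next tier, in which the libraries of *Tet1* overlapped those of both neighbours. *Tdg* with 2.43 ± 0.0880 and *Dnmt3b* with 1.10 ± 0.0924 RPKM (SD, n = 2) were lowest, each apart from its neighbour in both libraries. In KO the order began with *Dnmt1* at 38.3 ± 0.215, *Dnmt3a* at 17.5 ± 1.53 and *Tet3* at 15.5 ± 2.63 RPKM (SD, n = 2), with *Uhrf2* at 13.8 ± 0.183 in the fourth place, and the libraries of *Tet3* overlapped those of *Dnmt3a* and *Uhrf2*. The place of *Uhrf2* depended on the length used. With the longest annotated transcript, 3536 bases in place of the 8590 exonic bases of all transcripts together, it was second in both genotypes, with 42.9 RPKM in WT and 33.6 RPKM in KO.

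**Figure D3:**
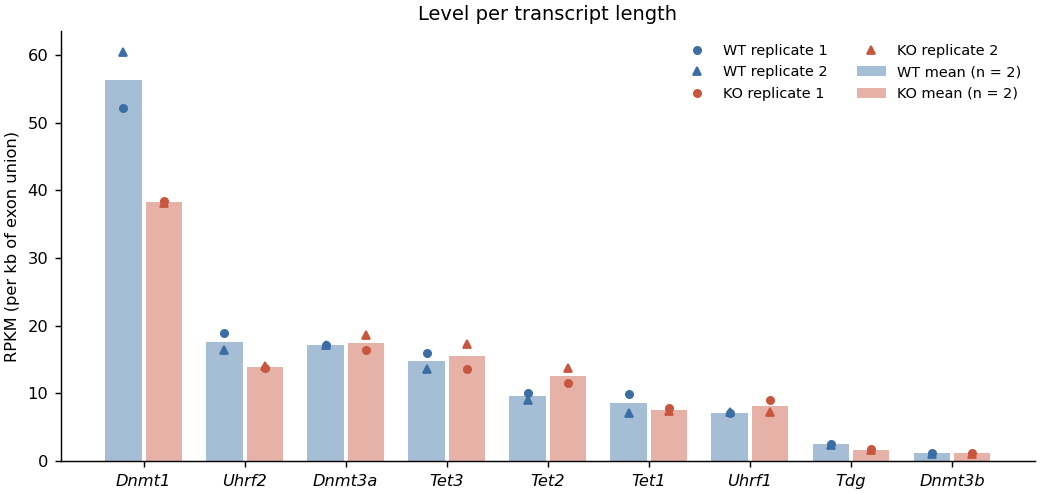
Level per length (RPKM, linear axis from 0) of the 9 genes in order of the WT mean, with bars for the mean of 2 libraries and points for the libraries, WT in blue and KO in red. *Dnmt1* leads in both genotypes, at 56.4 RPKM in WT and 38.3 RPKM in KO, and *Dnmt3b* is lowest in both.

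The make-up of each family followed from these levels. *Dnmt1* gave 74.0% and 76.8% of the summed DNMT level per length in the WT libraries and 68.5% and 66.0% in the KO libraries. *Dnmt3a* gave 24.4% and 21.8% in WT and 29.3% and 32.2% in KO, while *Dnmt3b* stayed at 1.32% to 2.12% in every library. The summed DNMT level was 70.6 and 78.8 RPKM in WT and 56.03 and 57.7 RPKM in KO. The DNMT shares depended on the length used. Per longest transcript, *Dnmt1* gave 68.0% and 71.2% in WT and 61.9% and 59.1% in KO. On that scale *Dnmt3a* gave 30.6% and 27.7% in WT and 36.3% and 39.4% in KO. Within the TET family, *Tet3* gave the largest share in each library, 41.4% to 45.5%. The share of *Tet2* was 27.9% and 30.5% in WT and 35.0% and 35.7% in KO, and that of *Tet1* was 27.5% and 24.0% in WT and 23.6% and 19.2% in KO. The summed TET level overlapped between genotypes, with 35.9 and 29.7 RPKM in WT and 33.0 and 38.5 RPKM in KO. With longest transcripts as the length, *Tet2* was above *Tet3* in KO replicate 1, at 42.02% against 41.4%, and below it in KO replicate 2, at 42.2% against 44.5%. These shares rest on the same counts as the fold changes and were not tested separately.

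Of 35 other genes of the pathway in 7 functional lists, 33 were tested and 0 passed an edgeR adjusted p of 0.05 (2 at an unadjusted p under 0.05, 0 with DESeq2 and 0 with limma-voom). Of all tested genes 7.90% passed at the adjusted and 22.7% at the unadjusted threshold. Their median log2 fold change was -0.08, with 12 values above 0 and 21 below. The smallest adjusted p was that of *Idh1*, which makes 2-oxoglutarate, the cosubstrate of TET enzymes. *Idh1* was counted 2381 and 3124 times in the WT libraries and 1984 and 1990 times in KO (log2 fold change -0.40, SE 0.13, edgeR adjusted p = 0.122) and was named after its value was seen.

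Among 6 maintenance partners, 5 had log2 fold changes below 0. *Usp7*, a deubiquitinase that binds DNMT1 and UHRF1, was the most abundant, with counts of 2678 and 3124 for WT and 2449 and 2376 for KO (log2 fold change -0.21, edgeR adjusted p = 0.418). The 11 base excision repair genes ranged from -0.32 to 1.496 on the log2 scale around a median of -0.08. The highest value was that of *Neil2*, a scarce transcript with counts of 8 and 6 for WT and 16 and 23 for KO (SE 0.60, edgeR adjusted p = 0.192). *Parp1*, a sensor of DNA strand breaks, led this list with counts of 1419 and 2247 for WT and 1402 and 1710 for KO (log2 fold change -0.16, edgeR adjusted p = 0.599). The 3 *Gadd45* genes, whose products are linked to active demethylation, had log2 fold changes of 0.36 to 0.58, none past the threshold. *Gadd45g*, the most abundant, had counts of 81 and 119 for WT and 118 and 127 for KO.

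Among TET partners, *Ogt*, an O-GlcNAc transferase that binds TET proteins, was counted 3418 and 3120 times in the WT libraries and 3792 and 3649 times in KO (log2 fold change 0.22, edgeR adjusted p = 0.501). The 5 genes of the methyl donor cycle ranged from -0.18 to 0.30 on the log2 scale around a median of -0.03, each with an edgeR adjusted p of at least 0.607. *Trim28*, a corepressor that keeps methylation at imprinted loci, was counted 3265 and 5366 times in the WT libraries and 3087 and 3411 times in KO (log2 fold change -0.33, edgeR adjusted p = 0.273). *Trdmt1*, an RNA methyltransferase of DNMT ancestry, was counted 61 and 60 times in the WT libraries and 52 and 36 times in KO. *Dnmt3l*, the germ-cell cofactor of DNMT3A, and *Dppa3*, which protects methylation in the zygote, had 0 counts in each library, which allows up to 0.294 to 0.372 CPM.

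*Dnmt1* is abundant in replicating cells. Of 12 S phase and proliferation genes, 0 passed an edgeR adjusted p of 0.05 (1 at an unadjusted p under 0.05, beside 22.7% of all tested genes, 0 with DESeq2 and 0 with limma-voom), and their median log2 fold change was -0.02. Their summed level was 713 and 718 CPM in WT and 705 and 701 CPM in KO. *Mki67*, the most abundant of them, was counted 1732 and 2219 times in the WT libraries and 1827 and 1842 times in KO. Set against this sum, *Dnmt1* amounted to 54.1% and 62.2% in WT and 40.2% and 40.1% in KO.

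Of 8 genes carried by neurons in general, 2 fell at an edgeR adjusted p under 0.05, *Syt1*, a calcium sensor of vesicle release (log2 fold change -0.73, edgeR adjusted p = 0.0150), and *Stmn2*, a microtubule regulator (-0.57, edgeR adjusted p = 0.0425). DESeq2 called 5 of the 8 and limma-voom 2, and 6 of the 8 had an unadjusted edgeR p under 0.05. Over all tested genes, 0.570% were lower at the adjusted threshold and 22.7% passed the unadjusted one. The median of the 8 was -0.52, and their summed level was 6096 and 5544 CPM in WT and 4178 and 4130 CPM in KO. As a percentage of that sum, *Dnmt1* was at 6.32% and 8.05% in WT and at 6.78% and 6.81% in KO, so that the genotypes overlapped on this scale. Relative to the same sum, *Tet2* was at 2.77% and 2.76% in WT and at 4.66% and 5.61% in KO. *Uhrf2*, lower in KO on the CPM scale, was at 2.66% and 2.55% of that sum in WT and at 2.82% and 2.91% in KO, with both KO libraries higher. Against the summed GABAergic genes *Uhrf2* stayed lower in KO, at 10.7% and 10.2% in WT and 10.01% and 9.24% in KO, as it did against the S phase genes, at 22.8% and 19.7% in WT and 16.7% and 17.1% in KO. Of 10 GABAergic interneuron genes, 0 passed with edgeR, DESeq2 or limma-voom (2 at an unadjusted edgeR p under 0.05, beside 22.7% of all tested genes), their median log2 fold change was -0.25, and against their summed level of 1177 to 1514 CPM *Dnmt1* was at 25.4% and 32.4% in WT and 24.1% and 21.6% in KO. Of 5 glutamatergic neuron genes 2 fell (3 passed with DESeq2 and 2 with limma-voom), *Neurod6* (-1.38, edgeR adjusted p = 0.000882) and *Neurod2* (-0.76, edgeR adjusted p = 0.0229), with a median of -0.68 and a summed level of 409 and 382 CPM in WT and 205 and 231 CPM in KO.

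Genes of astrocytes, mature oligodendrocytes and mural cells rose in the same KO libraries. All 8 astrocyte genes rose, with a summed level of 209 and 201 CPM in WT and 3408 and 3218 CPM in KO. *Slc1a2*, a glutamate transporter, went from 913 and 914 counts to 17041 and 16980 (log2 fold change 4.26, edgeR adjusted p = 6.33e-06). *Gfap* and *Agt* had 0 counts in both WT libraries, and the median of the 8 log2 fold changes was 5.18, or 4.29 with these 2 genes at the bound that 3 counts per WT library give. Of 6 mature oligodendrocyte genes 5 rose, with a summed level of 128 and 152 CPM in WT and 560.3 and 541 CPM in KO. All 5 mural cell genes rose, from a summed 47.8 and 52.7 CPM in WT to 319 and 308 CPM in KO, and *Acta2*, a smooth muscle actin, went from 0 counts in both WT libraries to 652 and 800 in KO, at least 249-fold higher when 3 counts per WT library are taken as the floor. Of 7 radial glia genes, *Hes1* rose (1.55, edgeR adjusted p = 0.0126), and the summed level was 963 and 964 CPM in WT and 1166 and 1099 CPM in KO. The log2 fold change was above 0 for 6 of the 7, and *Sox2* was at -0.29 (edgeR adjusted p = 0.302). Of 5 oligodendrocyte precursor genes, *Olig2* rose (0.63, edgeR adjusted p = 0.0298; 2 passed with DESeq2 and 1 with limma-voom; summed level 1283 and 1339 CPM in WT, 1631 and 1707 CPM in KO). Of 4 microglia genes tested *Csf1r* rose with edgeR but 0 passed with DESeq2 or limma-voom (1.03, edgeR adjusted p = 0.0474). The summed level of the 5 listed microglia genes was 20.98 and 24.8 CPM in WT and 37.2 and 45.9 CPM in KO. Of 4 endothelial genes tested 0 passed with edgeR, DESeq2 or limma-voom (3 at an unadjusted edgeR p under 0.05, beside 22.7% of all tested genes). These 3 went both ways, with *Cldn5* at -1.46, *Kdr* at -0.84 and *Flt1* at 1.11 on the log2 scale. The summed level of the 5 listed endothelial genes was 15.9 and 15.8 CPM in WT and 12.8 and 17.0 CPM in KO. The part of the marker shifts in the values of *Dnmt1*, *Uhrf2*, *Tet2* and *Tdg* was not tested.

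**Figure D4:**
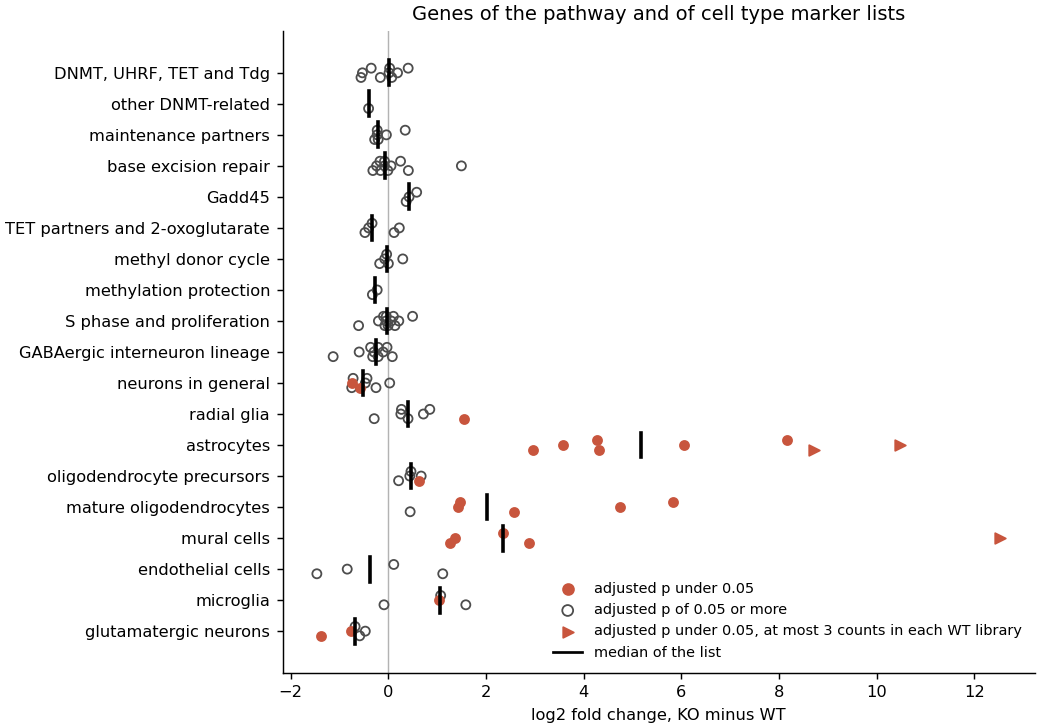
Log2 fold change (KO minus WT, edgeR) of the 9 genes, of the other pathway genes by list and of cell type marker genes by list, filled in red where the adjusted p is under 0.05. Right-pointing triangles are genes with at most 3 counts in each WT library, whose fitted fold depends on the prior count, and black lines are list medians. The pathway lists hold 0 filled points, whereas all 8 astrocyte and all 5 mural genes are filled and to the right.

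Over the 4 libraries, *Mon1b*, *Cptp* and *Gap43* had the pattern most like that of *Dnmt1* among 10181 genes with a mean of at least 10 CPM. The root mean square difference between their centred log2 CPM and that of *Dnmt1* was 0.0285, 0.0286 and 0.0290. *Gap43* was counted 3011 and 4531 times in the WT libraries and 2287 and 2578 times in KO. With 4 libraries this likeness is a description only.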

How the data were processed

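The authors deposited raw counts of reads per Ensembl gene for each library, without normalization. The submitters' processing notes name CASAVA 1.8.2, STAR 2.5.2a and featureCounts 1.5.0-p1 with the builds mm10 and GRCm38. Strand setting, annotation release and treatment of reads with several matches are not given in the sources used here, and antisense reads would be added where counting ignored strand. Gene IDs were matched to GENCODE M21 (55480 of 55573), which supplied positions, exon lengths and transcript sequences.

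The 9 genes and all lists were chosen with earlier results of these data known. Genes passing the expression filter of edgeR 4.0.16 (run in R 4.3.3 with limma 3.58.1) were tested by quasi-likelihood with TMM factors, genotype as the only term, with Benjamini-Hochberg adjustment over all tested genes. SEs and 95% intervals came from the test statistic. Floors of 3 counts and intervals cover counting or library error only. The procedure was tested on simulated data. Replicates differed beyond sampling noise, with chi-square values per degree of freedom of 57.2 for WT and 4.28 for KO, and each library was counted once.

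Named are all 9 genes, of each list the most abundant gene and up to 3 genes past the threshold, and the 3 genes most like *Dnmt1*. Further names were added after seeing values, and 1 gene that the rule names is not reported here. Alternatives comprised DESeq2 1.42.0, limma-voom, RLE, library size only, upper quartile, 2 other filters, removal of mitochondrial and rRNA genes, the replicate number as a block, a spline correction for GC content and gene length without and with that block, omission of each library, and other thresholds.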

Additional observations from a re-analysis of the deposited data

How the results depend on the processing

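In the 11 alternatives with all 4 libraries, 94 of 99 log2 fold changes of the 9 genes kept their sign and 10 newly passed the threshold. For *Dnmt1* the log2 fold change (edgeR adjusted p unless named) was -0.58 (0.00538) with DESeq2, -0.56 (0.0358) with limma-voom, -0.57 (0.0467) with RLE, -0.55 (0.00952) without a filter, -0.55 (0.0493) without mitochondrial and rRNA genes, -0.59 (0.000912) with the length and GC correction and -0.59 (0.000117) with that correction and the replicate block. The libraries share only a replicate number, whose deviations correlated at 0.137 across genes with 2 pairs, and with the replicate block *Dnmt1* was at -0.56 (edgeR adjusted p = 0.0149). With each library left out *Dnmt1* ranged from -0.67 to -0.46, the lone library being assumed to vary like the pair. With all 4 libraries, each setting just named called 1 of the 9 genes lower, *Dnmt1*, as did an adjusted p under 0.1, and both length and GC corrections called 1 gene higher, *Tet2*. With a library left out, calls of the 9 genes rest on how the lone library is assumed to vary and are not given.

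The sign turned for *Dnmt3a* at -0.0038 with the length and GC correction and -0.0046 with the block added, and with each library left out *Dnmt3a* ranged from -0.0597 (without KO replicate 2) to 0.126. For *Dnmt3b* it turned at -0.0016 with DESeq2, -0.0195 with the correction and -0.0228 with the block added, and with each library left out *Dnmt3b* ranged from -0.0827 (without WT replicate 2) to 0.116, with -0.07 without KO replicate 1. With each library left out *Tet1* ranged from -0.391 to 0.0799, above 0 without WT replicate 1, and *Tet3* from -0.11 to 0.248, below 0 without WT replicate 2 and without KO replicate 2.

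Of the other pathway genes, the length and GC correction called 1 higher (*Ogt*) and 1 lower (*Trim28*), and with the block 1 higher and 2 lower (*Idh1* added). With a library left out, 0 to 2 were higher and 0 to 3 lower. Over all genes, 1233 were higher and 96 lower. The counts that moved were 1925 higher and 816 lower with the correction, 2116 and 1056 with the block added, 724 and 16 at an adjusted p under 0.01, and for lower genes 252 with DESeq2, 573 without a filter, 52 with at least 10 counts in every library, 619 with the replicate block and 318 at an adjusted p under 0.1. Among the genes called in either direction, the share of higher genes was 92.8%, and 70.2% with the correction, 72.4% with the block and 66.7% with both. It was 66.5% without WT replicate 1 and 48.2% without WT replicate 2, where 2029 genes were higher and 2180 lower. With a library left out, 900 to 2578 were higher and 51 to 2180 lower. Among the tested marker genes, 21 were higher and 4 lower. The lower ones were 8 with DESeq2, 10 without a filter, 8 with the replicate block, 10 with the correction and 13 with both, and with a library left out 1 to 13 were lower and 17 to 31 higher. The causes of these moves were not tested. With 2 libraries per genotype and 48 to 54 counts, *Dnmt3b* is the gene whose difference the depth limits most.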
